A study of Mus musculus with 29 samples.

Results

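The genes described here are 10 mouse genes of the basement membrane and short-chain collagens: Col4a1, Col4a2, Col4a3, Col4a4, Col4a5 and Col4a6 (type IV), Col8a1 and Col8a2 (type VIII), Col15a1 (type XV) and Col18a1 (type XVIII). They were chosen by name, and all 10 were present among the 51456 gene symbols in the deposited files. Expression was measured by RNA sequencing of the aortic arch in 29 libraries from male C57BL/6 mice, in a cardiovascular safety study of romosozumab, an antibody against the Wnt inhibitor sclerostin. Of these, 10 libraries came from apolipoprotein E knockout (ApoE KO) mice whose implanted pump held angiotensin II (AngII) at 15.27 mg/mL and ran at 0.11 µL/hr, and that were injected each week with a sclerostin antibody (Scl-Ab), 10 mg/kg, over 4 weeks. A further 9 libraries came from ApoE KO mice with the same AngII pump that received vehicle. The remaining 10 libraries were labelled wild type (WT), from mice whose pump and injections held vehicle. All mice were about 14 weeks of age at pump implantation and ate standard chow.

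Genotype and AngII infusion differed together between both ApoE KO groups and WT, so their effects cannot be told apart. The AngII-infused ApoE KO mouse is a model of aortic disease, and some ApoE KO mice of the cohort died early of aortic rupture. The protocol gives 9 WT mice for 10 WT libraries, so n counts libraries, and p-values measure the spread between libraries. Apoe, the deleted gene, had mean values of 8.39 ± 2.79 in Scl-Ab libraries, 6.71 ± 1.70 in vehicle libraries and 264 ± 65.0 in WT (SD). The values are per gene length (FPKM-like), so levels of different genes can be compared. For a 2 kb gene, 31.5 to 43.4 fragments gave a value of 1, depending on the library. Fold changes are from limma on log2(value + 1), with p-values adjusted over 13510 tested genes and called under 0.05.

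The tissue was whole aortic arch, so fewer cells of a type and less RNA per cell cannot be told apart. The summed level of 10 smooth muscle markers was 5604 to 13461 with Scl-Ab, 4980 to 16849 with vehicle and 17456 to 20929 in WT, and all 10 had medians of at least 1 in every group. Of these 10 markers, 9 were lower than WT in each ApoE KO group. The sum of 11 endothelial markers was 126 to 324 with Scl-Ab, 235 to 368 with vehicle and 145 to 262 in WT. Against WT, 8 of the 11 were higher with vehicle and 3 with Scl-Ab, and none was lower (median log2 fold changes 0.56 and 0.32). Macrophage markers summed to 858 to 2047 with Scl-Ab, 1067 to 3209 with vehicle and 120 to 395 in WT, and all 10 were higher in both ApoE KO groups than in WT. Adipocyte markers summed to 558 to 5042 with Scl-Ab, 441 to 6633 with vehicle and 333 to 1715 in WT, with the highest sum in vehicle library 1 (of the 10, Lep alone had medians under 1). The 6 T and B cell markers had medians under 1 in every group. Vehicle library 1 stood apart: it held the lowest vehicle value of all 6 collagen IV genes, Col15a1 and Col18a1, and the highest of Col8a1 and Col8a2.

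Collagen IV is the main network collagen of basement membranes, the thin matrix sheets that surround each smooth muscle cell and underlie the endothelium. Its chains assemble in set combinations: the products of Col4a1 and Col4a2 form the ubiquitous trimer, those of Col4a3, Col4a4 and Col4a5 form a trimer best known from the kidney filter, and those of Col4a5 and Col4a6 form one found around smooth muscle. Collagen VIII is a short-chain collagen that forms polygonal lattices and is made by vascular cells in injured and atherosclerotic vessels. Collagens XV and XVIII carry glycosaminoglycan chains and lie at basement membranes, and the C-terminal piece of collagen XVIII is endostatin, an inhibitor of vessel growth.

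The collagen IV genes lie as pairs in head-to-head orientation (GRCm38, GENCODE M21). Col4a1 (chromosome 8, 11198423 to 11312826, minus strand) and Col4a2 (chromosome 8, 11312805 to 11449287, plus strand) have annotated starts 21 bases apart and share 22 bases, so reads in those bases cannot be assigned without strand. The starts of Col4a3 (chromosome 1, 82586921 to 82722059, plus strand) and Col4a4 (chromosome 1, 82448423 to 82586849, minus strand) lie 72 bases apart. Col4a5 (chromosome X, 141475385 to 141689234, plus strand) and Col4a6 (chromosome X, 141165403 to 141474076, minus strand) start 1309 bases apart. The type VIII genes are not neighbours: Col8a1 lies on chromosome 16 (57624258 to 57754737, minus strand) and Col8a2 on chromosome 4 (126286793 to 126314330, plus strand). Col15a1 is on chromosome 4 (47208161 to 47313167, plus strand) and Col18a1 on chromosome 10 (77052178 to 77166548, minus strand).

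The starts shared by the 2 closest collagen IV pairs are printed because the members of each pair moved together across libraries, as described further on. Some pairs of genes on different chromosomes moved together as well. The windows run from 250 bases before to 50 bases after the RefSeq start (GRCm38.p6), and capitals mark the stretch from the GENCODE start of the named gene to that of its partner. The Col4a2 window is chr8:11312555-11312854 on the plus strand, with 22 capitals that reach the start of Col4a1. The Col4a4 window is chr1:82586800-82587099 on the minus strand, with 73 capitals that reach the start of Col4a3.
Col4a2: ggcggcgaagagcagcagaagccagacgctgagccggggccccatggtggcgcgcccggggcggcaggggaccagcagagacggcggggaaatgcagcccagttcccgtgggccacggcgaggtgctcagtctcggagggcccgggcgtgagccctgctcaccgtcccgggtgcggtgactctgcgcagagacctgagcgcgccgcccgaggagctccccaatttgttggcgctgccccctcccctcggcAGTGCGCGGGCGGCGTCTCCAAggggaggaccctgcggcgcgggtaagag
Col4a4: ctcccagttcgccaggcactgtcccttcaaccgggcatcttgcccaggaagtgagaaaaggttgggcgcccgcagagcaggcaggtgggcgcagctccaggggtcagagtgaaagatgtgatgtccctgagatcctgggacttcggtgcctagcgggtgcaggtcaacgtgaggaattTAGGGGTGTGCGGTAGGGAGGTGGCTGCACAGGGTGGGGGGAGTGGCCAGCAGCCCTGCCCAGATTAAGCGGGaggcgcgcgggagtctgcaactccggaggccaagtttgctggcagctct

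The type VIII windows are shown because these genes changed most. The Col8a1 window is chr16:57754688-57754987 on the minus strand and the Col8a2 window is chr4:126286544-126286843 on the plus strand. Capitals mark the GC box GGGCGG on either strand, of which each window holds 4, with 2 that overlap in Col8a2.
Col8a1: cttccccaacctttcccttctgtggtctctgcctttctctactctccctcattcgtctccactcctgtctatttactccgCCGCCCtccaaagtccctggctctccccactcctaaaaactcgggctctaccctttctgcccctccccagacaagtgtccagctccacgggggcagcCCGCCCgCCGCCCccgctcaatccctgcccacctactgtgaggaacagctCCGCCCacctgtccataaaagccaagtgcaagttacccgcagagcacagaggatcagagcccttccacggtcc
Col8a2: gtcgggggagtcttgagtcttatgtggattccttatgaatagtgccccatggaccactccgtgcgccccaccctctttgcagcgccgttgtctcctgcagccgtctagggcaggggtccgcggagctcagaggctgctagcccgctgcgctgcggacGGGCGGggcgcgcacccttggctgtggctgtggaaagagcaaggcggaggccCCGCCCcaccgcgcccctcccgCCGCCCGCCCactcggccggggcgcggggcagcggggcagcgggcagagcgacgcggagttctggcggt

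Of the 10 genes, 9 matched a RefSeq window, and Col4a3 had none there. The GC box was found in 35.7% of all 32851 windows. It was present at least once in the windows of Col4a1, Col4a2, Col4a5, Col4a6, Col8a1, Col8a2 and Col18a1, and in none of those of Col4a4 and Col15a1. The Col15a1 window (chr4:47207762-47208061) ended before the GENCODE start of that gene, 47208161. CCAAT, searched on both strands and present in 37.4% of all windows, occurred once each in the windows of Col4a1, Col4a2, Col4a5 and Col18a1. For Col18a1, the GC box and CCAAT were in the window chr10:77166481-77166780. Its other window, chr10:77113656-77113955, held neither. TATAAA (13.6% of all windows) and the AP-1 motif TGANTCA (7.81%) were not in any of the 9 genes' windows. A match is a run of letters and not a measured binding site.

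Col15a1, Col18a1 and the ubiquitous collagen IV chains were abundant, while Col4a3, Col4a4 and, in WT, both type VIII genes were low. In WT the order of mean levels per length was Col18a1, Col15a1, Col4a1, Col4a2, Col4a5, Col4a6, Col4a4, Col4a3, Col8a1 and Col8a2. With Scl-Ab and with vehicle the order was the same except for Col8a1, which stood between Col4a5 and Col4a6. In all 3 groups the ranges of Col4a2 and Col4a5 did not overlap, and neither did those of Col4a6 and Col4a4, which sets 3 tiers of abundance. Within the tiers, neighbours in the order overlapped in range in every group, except Col18a1 and Col15a1 in WT. Col18a1 was above Col15a1 in all 29 libraries even so.

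**Figure D1:**
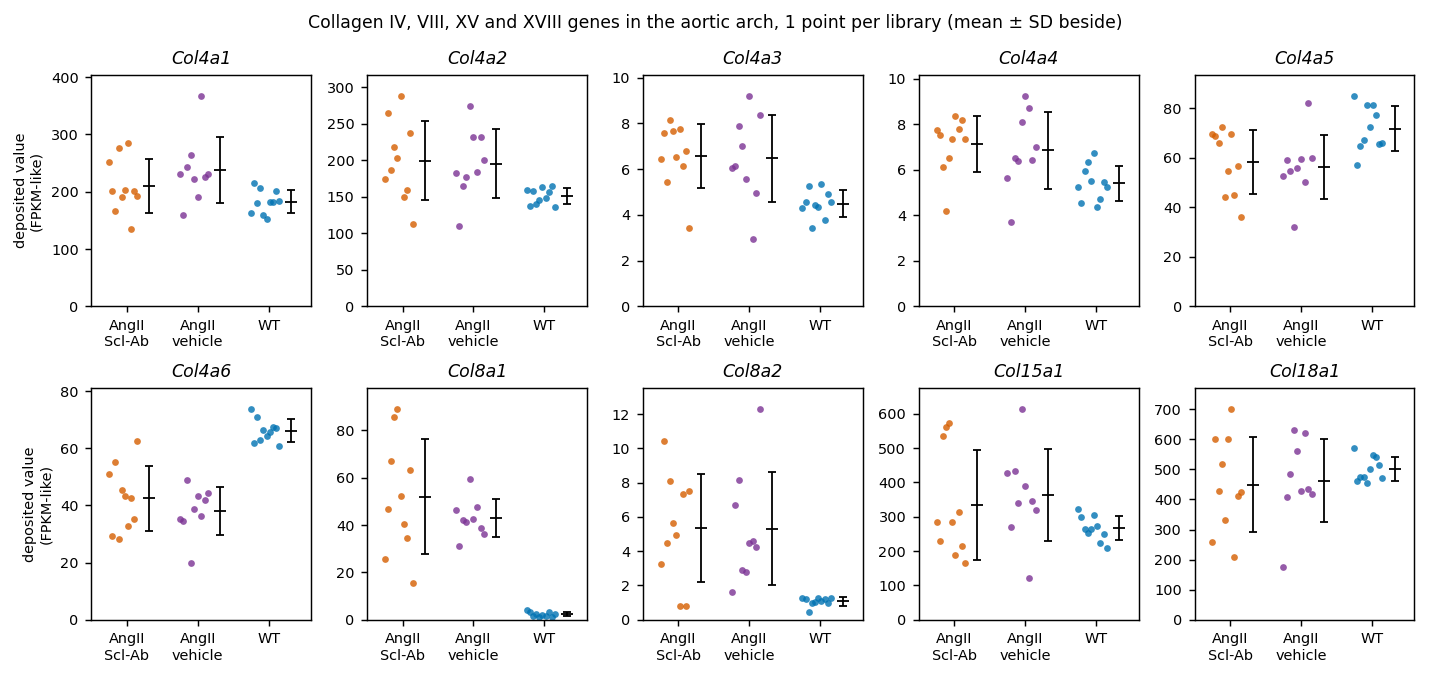
The deposited FPKM-like value (vertical axis, from 0) of each of the 10 collagen genes is shown for AngII Scl-Ab (n = 10), AngII vehicle (n = 9) and WT (n = 10), with 1 point per library and the mean ± SD beside the points. Col8a1 lies at 15.3 to 89.1 with Scl-Ab and 31.3 to 59.6 with vehicle, against 1.05 to 4.04 in WT, and the vehicle and Scl-Ab ranges overlap for all 10 genes.

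The first comparison set the vehicle-treated model against WT and asked how the diseased arch differed. Type VIII genes were much higher, Col4a1 and Col4a3 were higher by smaller folds, Col4a5 and Col4a6 were lower, and Col15a1 and Col18a1 did not pass. In all, 4 of 10 genes were higher (Col4a1, Col4a3, Col8a1 and Col8a2), 2 were lower (Col4a5 and Col4a6) and 4 did not pass, against 53.7% of all tested genes called in this comparison, 22.7% higher and 31% lower. The groups did not overlap for 3 of 10, against 16.8% of all tested genes. The share of the 10 genes called was near the background, while both type VIII genes were among the 4.81% of tested genes called at least 2-fold higher. The median log2 fold change of the 10 was 0.34, against -0.04 over all tested genes.

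Col8a1, which encodes the α1 chain of collagen VIII, was at 31.3, 42.3 and 59.6 (lowest, median and highest) with vehicle and at 1.05, 2.28 and 4.04 in WT. Every vehicle library was above every WT library. The change was 13.5-fold on the log2(value + 1) scale (log2 3.76, SE 0.23, limma adjusted p = 3.20e-13), and the ratio of the group means of the values was 18.5. Col8a2, which encodes the α2 chain, was at 1.59, 4.49 and 12.3 with vehicle and at 0.438, 1.16 and 1.28 in WT, again with no overlap. Its change was 2.74-fold (log2 1.45, SE 0.30, limma adjusted p = 0.000194), and the ratio of means was 4.93. Since 1 is added before the logarithm, these folds understate the change of such low genes. Col8a2 reached a value of 1 in 9 of 9 vehicle and 7 of 10 WT libraries.

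The collagen IV genes changed in different directions. Col4a1 was at 159.8, 231 and 368 with vehicle and 153, 182 and 216 in WT, and 7 of 9 vehicle libraries lay above the highest WT library. It rose 1.27-fold (log2 0.35, SE 0.13, limma adjusted p = 0.0200). Col4a2, its partner, was at 110.2, 184 and 275 with vehicle and 136, 153 and 166 in WT, with 7 of 9 above the WT range and vehicle library 1 below it. The log2 fold change of Col4a2 was similar in size at 0.33 (SE 0.14), and it did not pass (limma adjusted p = 0.0518).

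Col4a3 and Col4a4, the pair best known from the kidney, were the lowest of the collagen IV genes. Col4a3 was at 2.96, 6.14 and 9.22 with vehicle and 3.41, 4.50 and 5.37 in WT, and rose 1.32-fold (log2 0.40, SE 0.14, limma adjusted p = 0.0140). Col4a4 was at 3.69, 6.52 and 9.26 with vehicle and 4.36, 5.36 and 6.74 in WT, with a log2 fold change of 0.27 (SE 0.12) that did not pass (limma adjusted p = 0.0501). In both, vehicle library 1 was below all WT libraries, and the groups overlapped.

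Col4a6, whose chain joins that of Col4a5 in the basement membrane of smooth muscle, was at 19.8, 38.6 and 49.1 with vehicle and 60.9, 66.1 and 73.8 in WT. All 9 vehicle libraries were below the lowest WT library. It fell to 0.569-fold (log2 -0.81, SE 0.14, limma adjusted p = 1.31e-05). Col4a5 was at 32.1, 55.9 and 82.3 with vehicle and 57.0, 69.9 and 85.2 in WT, with 5 of 9 vehicle libraries below the WT range. It fell to 0.773-fold (log2 -0.37, SE 0.13, limma adjusted p = 0.0197). The smooth muscle marker sum was also lower with vehicle than in WT, with no overlap, and its part in these falls was not tested.

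Col15a1 was at 122, 346 and 614 with vehicle and 210.2, 264 and 323 in WT (log2 fold change 0.35, SE 0.24, limma adjusted p = 0.222). Of 9 vehicle libraries, 6 lay above the WT range and 1 below it. Col18a1 was at 177, 436 and 630.1 with vehicle and 453, 489 and 570.2 in WT (log2 fold change -0.19, SE 0.20, limma adjusted p = 0.439). Its vehicle libraries lay on both sides of the WT range, 2 above and 5 below. The coefficient of variation of Col18a1 was 29.8% with vehicle and 8.11% in WT, and that of Col15a1 was 36.8% with vehicle and 13.3% in WT.

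Vehicle library 1 decided some of these calls. Without it, Col15a1 passed (log2 0.53, limma adjusted p = 0.0338), as did Col4a2 (log2 0.43, adjusted p = 0.00747) and Col4a4 (log2 0.36, adjusted p = 0.00408). Col4a5 did not pass without it (log2 -0.28, limma adjusted p = 0.0529). Without vehicle library 5, the call of Col4a1 was lost (limma adjusted p = 0.0528). Col4a2 and Col4a4 were close to the threshold: Col4a2 also passed without vehicle library 4 (limma adjusted p = 0.0458), and Col4a4 without vehicle library 9 or WT library 23, 25 or 29 (adjusted p = 0.0335 to 0.0494). Col4a3, Col4a6, Col8a1 and Col8a2 passed whichever library was left out, with log2 fold changes of 0.34 to 0.51, -0.86 to -0.70, 3.69 to 3.83 and 1.30 to 1.59.

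Covariates moved the same calls. With the clock index as a covariate (a contrast of genes of the circadian clock, at 0.577 ± 1.16 with vehicle and 2.53 ± 1.55 in WT), the Col4a1 call was lost (log2 0.19, limma adjusted p = 0.311). With the endothelial marker level as a covariate, Col4a5 had a log2 fold change of 0.021 (limma adjusted p = 0.889), while Col15a1 passed at 1.01. Of 10 alternatives beside leaving out libraries, Col4a2 and Col4a4 passed in 6 each, with log2 fold changes of up to 0.71 for Col4a2 (limma adjusted p = 7.76e-05) and 0.41 for Col4a4 (adjusted p = 0.0178), both with the endothelial covariate. Col15a1 also passed with the adipocyte marker covariate (log2 0.54, limma adjusted p = 0.0106) and with library weights (log2 0.42, adjusted p = 0.0242).

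**Figure D2:**
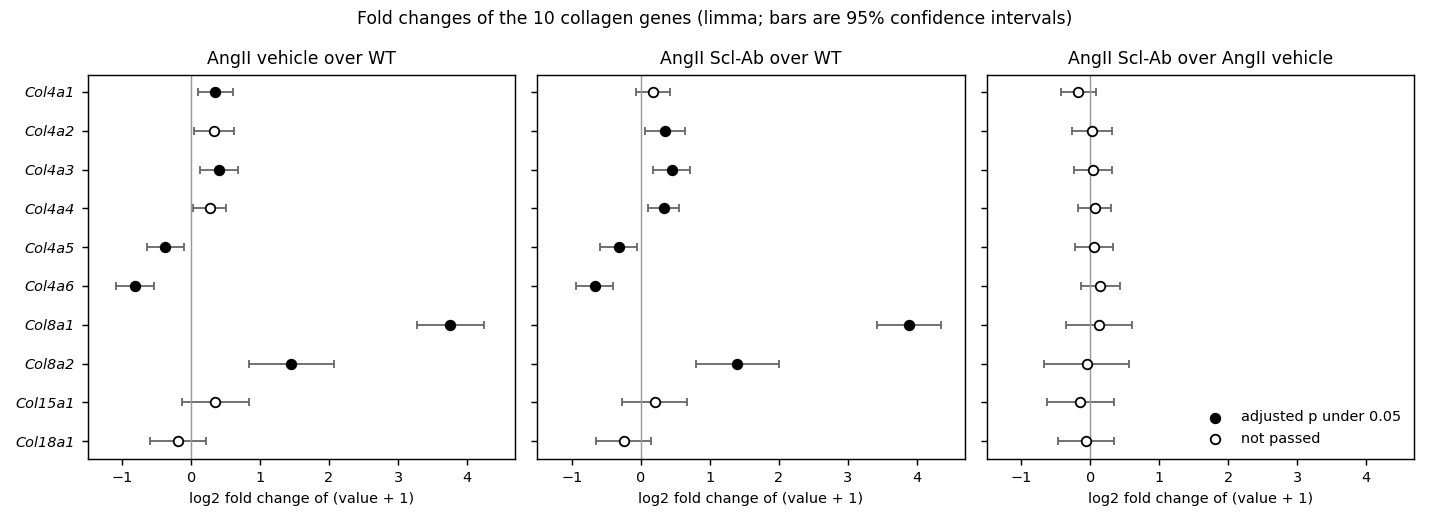
Log2 fold changes of (value + 1) for the 10 collagen genes (horizontal axis) are drawn with their 95% confidence intervals from limma, and filled points mark an adjusted p under 0.05. Col8a1 lies at 3.76 for AngII vehicle over WT and at 3.89 for AngII Scl-Ab over WT, and the third panel, AngII Scl-Ab over AngII vehicle, holds no filled point.

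The second comparison set Scl-Ab against WT. It shares the WT libraries with the first comparison, so the 2 are not independent. With Scl-Ab, 5 of 10 genes were higher than in WT (Col4a2, Col4a3, Col4a4, Col8a1 and Col8a2), 2 were lower (Col4a5 and Col4a6) and 3 did not pass, where 50.4% of all tested genes were called, 19.8% higher and 30.5% lower. The groups did not overlap for 1 of 10, against 12.3% of all tested genes. The median log2 fold change was 0.27 for the 10 genes and -0.06 for all tested genes.

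Col8a1 was at 15.3, 49.6 and 89.1 with Scl-Ab and 1.05, 2.28 and 4.04 in WT, with no overlap, a change of 14.8-fold (log2 3.89, SE 0.23, limma adjusted p = 9.51e-14). The ratio of means was 22.5, and 4.43% of tested genes were called at least 2-fold higher, both type VIII genes among them. Col8a2 was at 0.817, 5.29 and 10.5 with Scl-Ab and 0.438, 1.16 and 1.28 in WT, and 8 of 10 Scl-Ab libraries lay above the WT range. The other two, Scl-Ab libraries 17 and 18, had values of 0.826 and 0.817, and they also had the lowest Col8a1 values of their group, 15.3 and 25.5. Their fibroblast marker sums were also the lowest of the group, at 935 and 995, and the part of these cells was not tested. Col8a2 rose 2.64-fold (log2 1.40, SE 0.29, limma adjusted p = 0.000225).

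Col4a6 was at 28.3, 43.0 and 62.4 with Scl-Ab and 60.9, 66.1 and 73.8 in WT, and 9 of 10 Scl-Ab libraries were below the WT range. It fell to 0.630-fold (log2 -0.67, SE 0.13, limma adjusted p = 0.000127). Col4a5 was at 36.0, 61.3 and 72.4 with Scl-Ab and 57.0, 69.9 and 85.2 in WT, a fall to 0.801-fold (limma adjusted p = 0.0398). The Col4a5 call was lost in 10 of the 20 fits that left out 1 library (adjusted p up to 0.0916) and in 6 of 10 other alternatives. Its log2 fold change, -0.32, became -0.13 with the adipocyte covariate (limma adjusted p = 0.237) and -0.13 with the endothelial covariate (adjusted p = 0.242).

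Col4a3 was at 3.45, 6.65 and 8.16 with Scl-Ab and 3.41, 4.50 and 5.37 in WT, and 9 of 10 Scl-Ab libraries were above the WT range. It rose 1.36-fold (log2 0.45, SE 0.13, limma adjusted p = 0.00589). Col4a4 rose 1.26-fold (log2 0.33, SE 0.11, limma adjusted p = 0.0151), with values of 4.21, 7.45 and 8.38 with Scl-Ab and 4.36, 5.36 and 6.74 in WT. Col4a2 was at 113, 195 and 289 with Scl-Ab and 136, 153 and 166 in WT, with 7 of 10 Scl-Ab libraries above the WT range. It rose 1.28-fold (log2 0.35, SE 0.14, limma adjusted p = 0.0353), a call lost in 7 of the 20 fits that left out 1 library (adjusted p up to 0.0754) and without the filter on low values (adjusted p = 0.0685). Col4a1 did not pass at log2 0.18 (limma adjusted p = 0.230), with 135, 201 and 285 with Scl-Ab and 153, 182 and 216 in WT. Col15a1 (log2 0.20, adjusted p = 0.483) and Col18a1 (log2 -0.25, adjusted p = 0.293) did not pass by limma either. Col4a1 passed with the adipocyte covariate (log2 0.36, limma adjusted p = 0.00071) and with the endothelial covariate (log2 0.33, adjusted p = 0.00975). Col15a1 did so too, at 0.51 (limma adjusted p = 0.0192) and 0.52 (adjusted p = 0.0127) with these covariates, while Col18a1 passed under none of 10 alternatives.

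The third comparison, Scl-Ab against vehicle, asked what the antibody changed in the diseased arch. None of the 10 genes passed by limma, and none had an unadjusted p under 0.05, while 7.44% of all tested genes were called (2.64% higher and 4.8% lower) and 25% had an unadjusted p under 0.05. The median log2 fold change was 0.034 for the 10 genes and -0.0085 for all tested genes. The groups overlapped for all 10 genes, and they did not for 0.141% of tested genes.

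A missed threshold does not show that levels were alike, and the 95% intervals bound the size. Col8a1 averaged 52.0 ± 24.4 in Scl-Ab libraries and 42.9 ± 8.01 in vehicle libraries (SD), a log2 difference of 0.13 (95% interval -0.35 to 0.61). Col8a2 averaged 5.34 ± 3.14 with Scl-Ab and 5.30 ± 3.31 with vehicle (log2 -0.051, interval -0.67 to 0.56). Col15a1 averaged 335 ± 159.7 with Scl-Ab and 363 ± 134 with vehicle (log2 -0.15, interval -0.63 to 0.34). Col18a1 averaged 449 ± 158 with Scl-Ab and 463 ± 138 with vehicle (log2 -0.058, interval -0.47 to 0.35).

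The collagen IV intervals were narrower. Col4a1 averaged 210.3 ± 47.2 in Scl-Ab libraries and 237 ± 57.4 in vehicle libraries (SD), a log2 difference of -0.17 (interval -0.43 to 0.083). Col4a2 averaged 199.7 ± 54.2 with Scl-Ab and 195 ± 47.2 with vehicle (log2 0.022, interval -0.27 to 0.32). Col4a6 averaged 42.6 ± 11.4 with Scl-Ab and 38.2 ± 8.40 with vehicle (log2 0.15, interval -0.13 to 0.43). The remaining 3 had log2 differences of 0.045 for Col4a3, 0.063 for Col4a4 and 0.052 for Col4a5. With the endothelial marker level as a covariate, Col4a1 was lower with Scl-Ab than with vehicle (log2 -0.33, limma adjusted p = 0.0317). Of 11 endothelial markers, 4 were lower with Scl-Ab than with vehicle and none was higher (limma; 6 had an unadjusted p under 0.05).

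Ratios between partner chains were taken within each library, which removes any scaling shared by both genes, and tested by permutation over libraries (two-sided, adjusted over 18 tests). The share of the collagen IV sum that came from Col4a1 plus Col4a2 was 73.0 to 80.6% with Scl-Ab, 76.9 to 82.2% with vehicle and 66.8 to 71.4% in WT. Both ApoE KO groups lay wholly above WT. The mean was 78.0% ± 2.34 in Scl-Ab libraries, 80.1% ± 1.58 in vehicle libraries and 69.2% ± 1.44 in WT (SD, n = 10, 9 and 10). The difference was 8.75 percentage points for Scl-Ab over WT (permutation test, adjusted p = 4.9e-05, from the smallest p that the resamples can give, 1e-05). For vehicle over WT it was 10.8 points (exact permutation test, adjusted p = 4.9e-05). Scl-Ab was 2.06 points lower than vehicle in mean share, which did not pass (exact permutation test, p = 0.0366, adjusted p = 0.0599).

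The collagen IV sum itself did not pass in any comparison with all libraries. Without vehicle library 1 it was higher with vehicle than in WT (log2 0.22, exact permutation test, adjusted p = 0.0257), against log2 0.14 with that library (adjusted p = 0.377). It was 525 ± 120.5 in Scl-Ab libraries, 540.5 ± 125 in vehicle libraries and 482 ± 40.0 in WT (SD). Col4a6 made up 8.12% ± 1.03 of the sum with Scl-Ab, 7.07% ± 0.762 with vehicle and 13.8% ± 0.959 in WT. Col4a5 made up 11.2% ± 1.84 with Scl-Ab, 10.4% ± 0.744 with vehicle and 14.9% ± 0.926 in WT.

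The ratio of Col4a5 to Col4a6 was 1.16 to 1.96 with Scl-Ab, 1.35 to 1.68 with vehicle and 0.921 to 1.24 in WT. The vehicle libraries were all above WT, and the Scl-Ab range overlapped WT. The ratio was 1.37-fold higher with vehicle than in WT (exact permutation test, adjusted p = 4.9e-05) and 1.28-fold higher with Scl-Ab than in WT (permutation test, adjusted p = 0.00027). Col4a6 was lowered more than Col4a5 in both groups. The ratio of Col15a1 to Col18a1 behaved alike: it was 0.561 to 0.933 with Scl-Ab, 0.634 to 0.975 with vehicle and 0.444 to 0.626 in WT. It was 1.45-fold higher with vehicle than in WT (exact permutation test, adjusted p = 4.9e-05), with no overlap, and 1.36-fold higher with Scl-Ab than in WT (permutation test, adjusted p = 0.00027). Neither gene of that pair had passed on its own.

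The Col4a3 to Col4a4 ratio was 0.922 ± 0.0934 with Scl-Ab, 0.931 ± 0.0662 with vehicle and 0.833 ± 0.0565 in WT (SD, n = 10, 9 and 10). It was 1.12-fold higher with vehicle than in WT (exact permutation test, adjusted p = 0.00986). With Scl-Ab it was 1.104-fold higher than in WT (permutation test, adjusted p = 0.0423), a call lost in 14 of the 20 sets that left out 1 library (adjusted p up to 0.0748). A Col8a1 to Col8a2 ratio was not computed, since 5 libraries had a value under 1.

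The Col4a1 to Col4a2 ratio was the one of these 6 quantities to pass between Scl-Ab and vehicle with all libraries. Without Scl-Ab library 15 the Col4a5 to Col4a6 ratio passed too (log2 -0.16, exact permutation test, adjusted p = 0.0371), against log2 -0.099 with it. The Col4a1 to Col4a2 ratio itself was 0.810, 1.09 and 1.20 (lowest, median and highest) with Scl-Ab, 1.05, 1.21 and 1.45 with vehicle and 1.13, 1.21 and 1.30 in WT. The Scl-Ab and vehicle ranges overlapped. The mean ratio was 1.07 ± 0.120 in Scl-Ab libraries and 1.23 ± 0.124 in vehicle libraries (SD), 0.873-fold (exact permutation test, p = 0.0121, adjusted p = 0.0242). Against WT, at 1.21 ± 0.0653 (SD, n = 10), the ratio with Scl-Ab was 0.884-fold (permutation test, adjusted p = 0.00792), and with vehicle it did not pass (adjusted p = 0.785, exact permutation test). The difference between Scl-Ab and vehicle passed whichever library was left out, with log2 values of -0.22 to -0.15.

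Library titles carry a code that the labels do not explain, and its last 2 digits split the ApoE KO libraries into ranges. Among codes 27 to 33, with 6 Scl-Ab and 5 vehicle libraries, the log2 difference of the Col4a1 to Col4a2 ratio was -0.26 (exact permutation test, adjusted p = 0.0234). Among codes 12 to 15, with 4 libraries each, it was -0.091 and did not pass (exact permutation test, adjusted p = 0.557). In the 16 libraries whose digits occur in both groups it was -0.13 and did not pass either (exact permutation test, adjusted p = 0.126). The clock index was also higher with Scl-Ab (3.01 ± 0.635) than with vehicle (0.577 ± 1.16), and its part in the ratio was not tested.

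**Figure D3:**
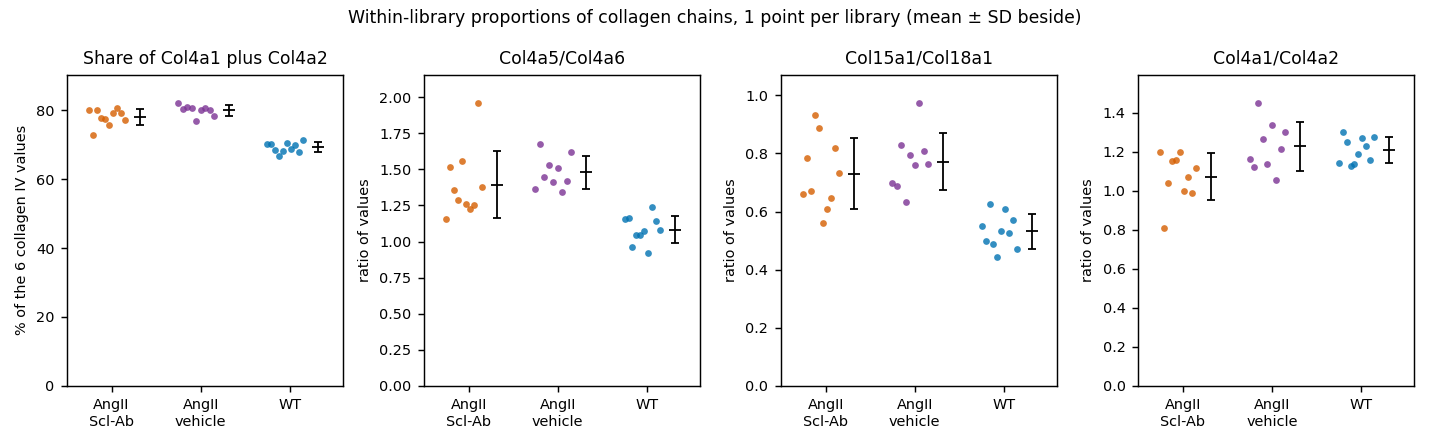
Within-library proportions are plotted from 0 on the vertical axis for AngII Scl-Ab (n = 10), AngII vehicle (n = 9) and WT (n = 10), with 1 point per library and the mean ± SD beside. The first panel gives the percentage of the collagen IV sum held by Col4a1 plus Col4a2, where all ApoE KO libraries lie above 71.4%, the highest WT value, and the other panels give ratios of values.

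Partner chains varied together across the libraries of a group, but this was not particular to partners. For Col4a2 and Col15a1, on different chromosomes, Pearson's r was 0.942 with Scl-Ab, 0.972 with vehicle and 0.727 in WT. For the partners Col4a1 and Col4a2 it was 0.914, 0.925 and 0.918. Over the 5 pairs named by assembly or kinship and 3 groups, 15 correlations of log2(value + 1) were computed and adjusted together. Col4a3 and Col4a4 had Pearson's r of 0.911 with Scl-Ab (rho 0.903, adjusted p = 0.0048), 0.995 with vehicle (rho 1, adjusted p = 4.13e-05) and 0.889 in WT (rho 0.855, adjusted p = 0.00176; permutation tests). Without the 2 libraries farthest from the Col4a3 median, r was 0.576 with Scl-Ab, 0.979 with vehicle and 0.793 in WT. The unadjusted permutation p was at most 0.00384 for r and at most 0.00307 for rho in the 3 groups. Col4a1 and Col4a2 had r of 0.914 with Scl-Ab (rho 0.867), 0.925 with vehicle (rho 0.850) and 0.918 in WT (rho 0.879), and r of 0.773, 0.840 and 0.856 without the 2 farthest libraries of each group. Their permutation p was at most 0.00139 for r (adjusted p at most 0.00209) and at most 0.00607 for rho (adjusted p at most 0.00828).

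Col4a5 and Col4a6, whose starts are farther apart, had r of 0.822 with Scl-Ab (rho 0.855, permutation adjusted p = 0.0048), 0.958 with vehicle (rho 0.967, adjusted p = 0.00031) and 0.779 in WT (rho 0.648, adjusted p = 0.0092). Without the 2 farthest libraries, r was 0.664 with Scl-Ab, 0.927 with vehicle and 0.621 in WT. The unadjusted permutation p was at most 0.00797 for r, and that of rho was 0.00308 with Scl-Ab, 0.000165 with vehicle and 0.0486 in WT (adjusted p = 0.0561 in WT). Col8a1 and Col8a2 had r of 0.870 with Scl-Ab (rho 0.721, permutation adjusted p = 0.00209), 0.915 with vehicle (rho 0.867, adjusted p = 0.00176) and 0.607 in WT (rho 0.467, adjusted p = 0.0479). Without the 2 farthest libraries, r was 0.599 with Scl-Ab and 0.702 with vehicle. In WT the relation rested on 2 libraries: r was 0.250 without them. The unadjusted permutation p was 0.0013 for r and 0.0242 for rho with Scl-Ab, 0.000937 for r and 0.00451 for rho with vehicle, and 0.0447 for r and 0.180 for rho in WT. Col15a1 and Col18a1 had r of 0.938 with Scl-Ab (rho 0.988, permutation adjusted p = 0.000424), 0.967 with vehicle (rho 0.933, adjusted p = 0.000424) and 0.573 in WT (rho 0.624, adjusted p = 0.0858). Without the 2 farthest libraries, r was 0.918 with Scl-Ab, 0.841 with vehicle and 0.605 in WT. The unadjusted permutation p was at most 0.000113 for r and at most 0.00075 for rho in both ApoE KO groups, and 0.0858 for r and 0.0598 for rho in WT.

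**Figure D4:**
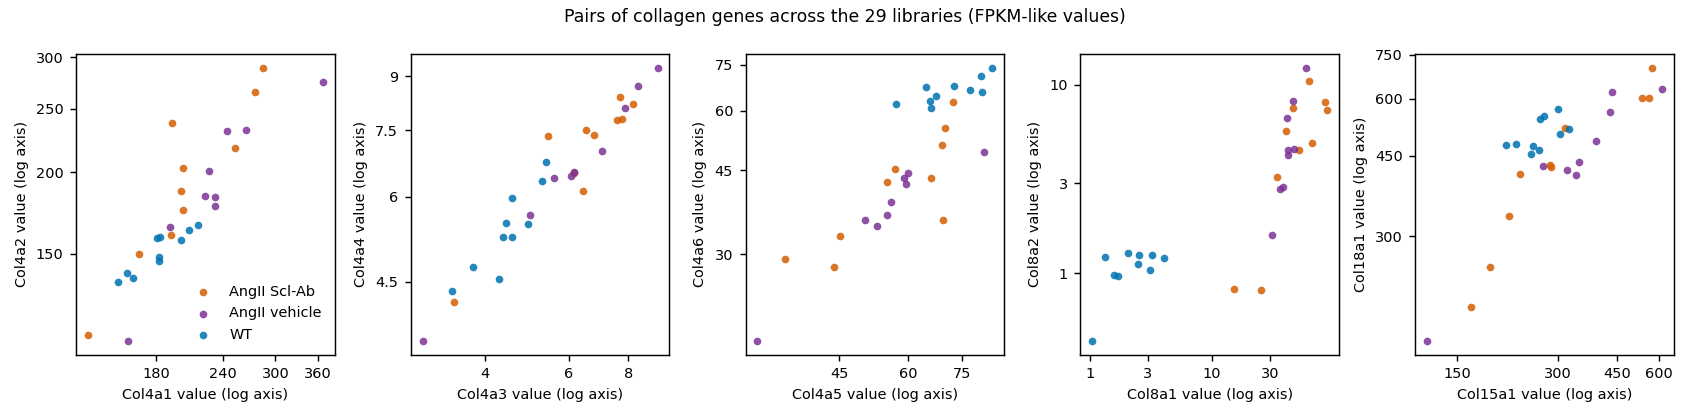
Each panel plots the values of 1 pair of collagen genes against each other on log axes, with 1 point per library in AngII Scl-Ab, AngII vehicle and WT. The Col8a1 and Col8a2 panel shows WT at Col8a1 values of 1.05 to 4.04, apart from the ApoE KO libraries, and the Col4a5 and Col4a6 panel shows most WT libraries above the ApoE KO libraries at like Col4a5 values.

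All 45 pairs of the 10 genes were also taken in each group (135 correlations adjusted together, a set added after the data had been seen). Most pairs of a type VIII gene with the other genes had a negative r, which for several rested on extreme libraries. Among the 8 genes of types IV, XV and XVIII, 28 of 28 pairs had a positive r with Scl-Ab (18 past adjustment, median r 0.759) and 28 of 28 with vehicle (28 past adjustment, median r 0.906; permutation tests). The 2 farthest libraries were those farthest from the median of 1 gene of the pair, the earlier in the opening list, so they can differ between pairs. Without them, r with vehicle stayed positive but ran from 0.301 (Col4a3 and Col15a1, 0.870 with all libraries) to 0.979 (Col4a3 and Col4a4). With Scl-Ab, it did not stay positive and ran from -0.559 (Col4a4 and Col4a5, 0.615 with all libraries) to 0.945 (Col4a2 and Col15a1). For Col4a3 and Col4a5 it was -0.166 (0.493 with all Scl-Ab libraries). In WT, 16 of the 28 were positive and 12 negative (11 past adjustment). The negative WT pairs were those of Col4a3 or Col4a4 with the other 6 genes. Between a type VIII gene and those 8, 15 of 16 pairs were negative with Scl-Ab (3 past adjustment), 16 of 16 with vehicle (4 past adjustment) and 12 of 16 in WT (1 past adjustment). Among the negative pairs, Col8a2 and Col4a6 had r of -0.839 with Scl-Ab (rho -0.842, permutation adjusted p = 0.00919) and -0.799 without the 2 farthest libraries. With vehicle, the same pair had r of -0.773 (exact permutation p = 0.0114, adjusted p = 0.0277), rho of -0.633 (exact permutation p = 0.0760) and -0.540 without the 2 farthest. Without the 2 farthest vehicle libraries of each pair, r of Col8a1 was 0.115 with Col4a3, 0.237 with Col4a4, 0.042 with Col4a5 and 0.048 with Col15a1. It was -0.239 with Col4a1, -0.334 with Col4a2, -0.163 with Col4a6 and -0.109 with Col18a1. For Col8a2, that r stayed negative with all 8 genes, at -0.540 to -0.203. With Scl-Ab, that r ran from -0.527 to 0.257 for Col8a1 and from -0.799 to 0.031 for Col8a2.

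These correlations are over libraries that share their tissue makeup. Vehicle library 1 had the lowest smooth muscle sum (4980) and the highest adipocyte (6633), endothelial (368) and fibroblast (4139) sums of its group. Vehicle library 5, with the highest Col4a1 (368), Col4a5 (82.3) and Col15a1 (614) of the group, had the highest smooth muscle sum (16849) and the lowest adipocyte sum (441). With Scl-Ab, library 12 had the lowest smooth muscle sum (5604) and the lowest Col4a1, Col4a2, Col4a3, Col4a4, Col4a5, Col15a1 and Col18a1 values. Their part in the correlations was not tested.

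**Figure D5:**
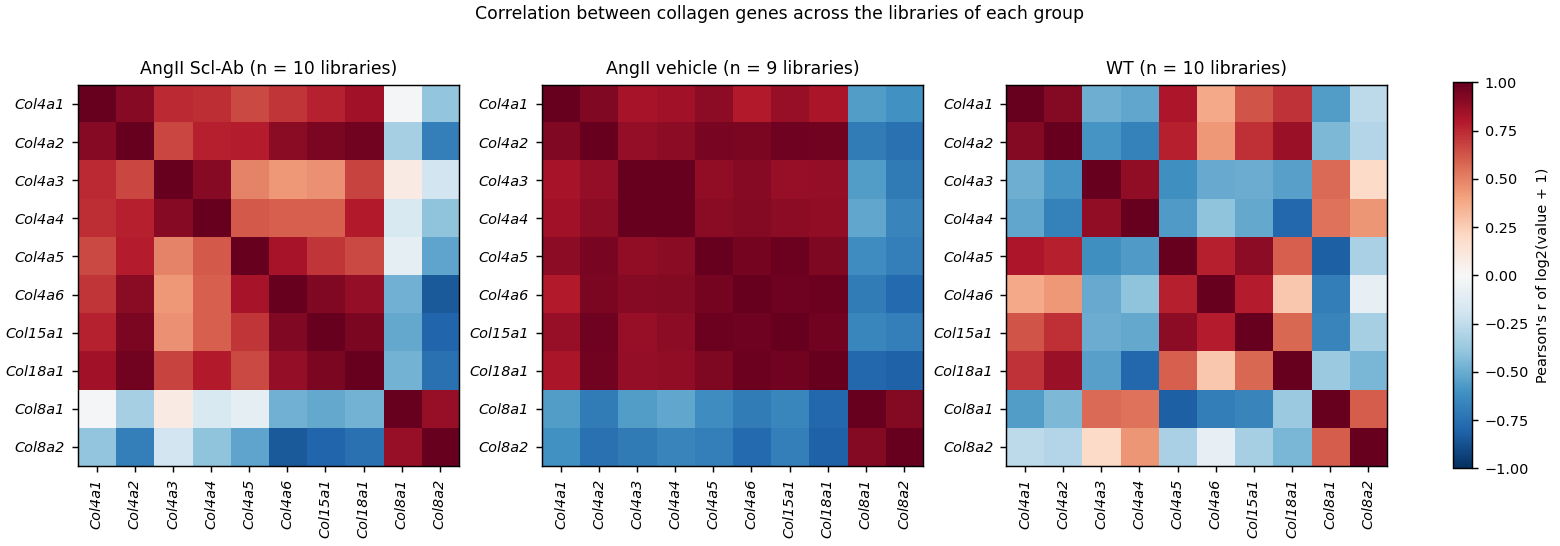
The color gives Pearson's r of log2(value + 1) between collagen genes (rows and columns) over the libraries of AngII Scl-Ab (n = 10), AngII vehicle (n = 9) and WT (n = 10). In the ApoE KO panels the 8 genes of types IV, XV and XVIII form a block of positive r, and Col8a1 and Col8a2 are set apart from it, with negative r in 15 of 16 pairs with Scl-Ab and 16 of 16 with vehicle.

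For 4 of the genes, the most similar other genes were sought among those tested, by Pearson's r of the deviations from group means over the 29 libraries, as a description. For Col4a1 these were Vcl, which encodes the adhesion protein vinculin (r = 0.943), Ehd2, a protein of caveolae (r = 0.908), and Ly75, an endocytic receptor (r = 0.902). For Col8a1 they were Lurap1l (r = 0.863), Farp1 (r = 0.859) and Flrt2 (r = 0.858). For Col15a1 they were Igfbp7, a secreted binder of insulin-like growth factors (r = 0.958), Tmsb4x, which binds actin monomers (r = 0.956), and Dbndd2 (r = 0.949). For Col18a1 they were Tpm2, a tropomyosin (r = 0.972), Mfge8, a secreted glycoprotein (r = 0.970), and Uchl1, a ubiquitin hydrolase (r = 0.966).

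Partners of these collagens in the basement membrane moved in both directions. Of 26 listed laminins, nidogens, proteoglycans and linkers, 18 were tested. With vehicle, 7 were higher and 7 lower than in WT, and 4 did not pass (median log2 fold change -0.19, against -0.04 for all tested genes). Of all tested genes, 22.7% were higher and 31% lower in this comparison. The 14 calls became 7 to 15 under 10 alternatives beside leaving out libraries. Lama4, the laminin chain typical of vessel walls, fell to 0.531-fold (limma adjusted p = 5.34e-10), while Sparc, a secreted collagen-binding glycoprotein, rose 1.69-fold (adjusted p = 9.45e-06) and Ntn4, a netrin that binds laminin, rose 1.98-fold (adjusted p = 1.05e-05). With Scl-Ab the counts against WT were also 7 higher and 7 lower of 18, beside 19.8% higher and 30.5% lower of all tested genes. There Tinagl1, a matrix protein that binds laminin, fell to 0.572-fold, Lama4 fell to 0.660-fold and Sparc rose 1.71-fold. Between Scl-Ab and vehicle, Lama4 alone passed of the 18, at 1.24-fold (limma adjusted p = 0.0227), beside 7.44% of all tested genes. That call was lost without vehicle library 2 (limma adjusted p = 0.0537) and in 8 of 15 other alternatives.

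Genes for collagen synthesis, secretion and cross-linking were higher or did not pass. Of 24 listed, 23 were tested, and with vehicle 8 were higher and none lower than in WT (limma; 9 had an unadjusted p under 0.05), with a median log2 fold change of 0.11. The 8 of 23 called compare with 53.7% of all tested genes in this comparison, 22.7% higher and 31% lower. P4ha3, a prolyl hydroxylase subunit, rose 3.80-fold (limma adjusted p = 1.64e-09). It reached a value of 1 in 9 of 9 vehicle, 10 of 10 Scl-Ab and 0 of 10 WT libraries (highest WT value 0.329). P4ha3 thus entered the test only through the ApoE KO groups, and its folds on the log2(value + 1) scale understate the change. Loxl2, a lysyl oxidase that acts on collagen IV, rose 3.57-fold (adjusted p = 1.09e-09), and Pxdn, the peroxidasin that cross-links collagen IV, rose 1.39-fold (adjusted p = 4.30e-05). With Scl-Ab, 8 were higher and none lower than in WT (limma; 9 had an unadjusted p under 0.05; 50.4% of all tested genes were called), 8 to 13 under 10 alternatives, with P4ha3 at 4.15-fold, Loxl2 at 3.00-fold and Plod1, a lysyl hydroxylase, at 1.33-fold. Between Scl-Ab and vehicle, Plod1 passed at 1.18-fold (limma adjusted p = 0.0111), and the other 22 did not (7.44% of all tested genes did). The Plod1 call was lost in 6 of 15 other alternatives.

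Of 17 listed matrix receptors, chiefly those for collagen and laminin, 16 were tested. With vehicle, 5 were higher and 4 lower than in WT, a called share near the 53.7% of all tested genes. Itga11, a collagen-binding integrin chain, rose 3.04-fold (limma adjusted p = 2.42e-09) and Itga2, another such chain, rose 1.77-fold (adjusted p = 2.56e-06), while Bcam, a laminin receptor, fell to 0.330-fold (adjusted p = 1.82e-08). Itga2 reached a value of 1 in 8 of 9 vehicle, 7 of 10 Scl-Ab and 0 of 10 WT libraries (highest WT value 0.472). For Adgrg6, also on this list, these counts were 5, 5 and 0. Both genes thus entered the test only through the ApoE KO groups, and folds of (value + 1) understate changes at such levels. With Scl-Ab, 5 were higher and 5 lower than in WT, beside 50.4% called of all tested genes, among them Itga11 at 3.22-fold, Bcam at 0.328-fold and Itga1, an integrin chain that binds collagen IV, at 0.690-fold. Between Scl-Ab and vehicle, 2 were lower, beside 7.44% called of all tested genes. They were Itga9, not a typical collagen or laminin receptor, at 0.668-fold (limma adjusted p = 0.0232) and Itga1 at 0.870-fold (adjusted p = 0.04996, just under the threshold). This count ran from 0 to 2 when 1 library was left out and from 0 to 4 under 15 other alternatives. Leaving out 1 library lost the Itga1 call in 15 of 19 fits and the Itga9 call in 1, without vehicle library 5 (adjusted p = 0.0519), and the other alternatives lost them in 12 and 9 of 15.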

How the data were processed

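Poly(A) RNA of aortic arch was sequenced from stranded libraries, per the labels' protocols. The deposited values, named FPKQ per the file headers, are treated as FPKM: for low genes they lay on steps that scale with exon length (78.9 to 83.2% within 0.05 of a whole step). The 85th percentile was 6.99 to 7.30 in each library, while sums of values ran from 496126 to 678907 and 12558 to 13397 genes reached 1, so a common upper quantile was assumed. Total read numbers are not known. The submitters' processing notes name GRCm38 and DESeq2 1.10.1, with no role. For the aligner, the counter, the annotation and the use of strand in counting, the entry is: not given in the sources used here.

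Groups came from the labels. Genes that reached 1 in 9 or more libraries (13510, all 10 collagens among them) were tested with limma 3.58.1 (R 4.3.3; trend and robust) on log2(value + 1), with all 29 libraries in 1 fit and Benjamini-Hochberg adjustment. Ratios, shares and correlations used permutation tests in Python 3.11.15 (scipy 1.17.1): exact where a group had under 10 libraries, otherwise 100000 resamples, two-sided. The 10 genes and all lists were chosen with earlier results of these data known. The text names all 10, the 3 genes of smallest p per list and comparison, and the 3 most similar genes to Col4a1, Col8a1, Col15a1 and Col18a1 (numbered gene models passed over). Sequences are from RefSeq, GRCm38.p6. Alternatives covered the pseudocount (0.1), the filter, scaling (TMM factors, equal totals, removal of GC and length trends), the libraries fitted, covariates, library weights, title codes and leaving out each library. Marker lists for Schwann cells, mesothelium, heart and skeletal muscle, pericytes and chondrocytes were also summed. Of their tested members, the vehicle-treated model had 1 of 6, 0 of 2, 0 of 7, 0 of 2, 0 of 6 and 3 of 6 higher than WT by limma, and 1, 0, 1, 0, 5 and 0 lower (unadjusted p under 0.05 for 2, 0, 2, 0, 5 and 4). With Scl-Ab against WT, in the same order of lists, 1, 0, 4, 0, 1 and 5 were higher and 1, 0, 0, 0, 3 and 0 lower. Between Scl-Ab and vehicle, 0, 0, 1, 0, 1 and 1 were higher and none lower (limma; unadjusted p under 0.05 for 0, 0, 5, 2, 1 and 1). There all 7 heart muscle markers had a log2 difference above 0 (median 2.05), and the part of this tissue was not tested. Of 8 fibroblast markers 3 were higher with vehicle than in WT, with sums of 1313 to 4139 with vehicle and 869 to 2149 in WT.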

Additional observations from a re-analysis of the deposited data

Results flagged for a closer look

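Within each group of 9 or 10 libraries, the highest and lowest value of each collagen gene were set against the others on the log2(value + 1) scale by Dixon's criterion, which flags about 1 in 20 groups by chance. Of 30 combinations of gene and group, 6 had a library far from the others. Vehicle library 1 was far below the other vehicle libraries for Col4a6 (19.8), Col15a1 (122) and Col18a1 (177), and it had the lowest smooth muscle and the highest adipocyte marker sum of its group. Scl-Ab library 12 was far below the other Scl-Ab libraries for Col4a3 (3.45) and Col4a4 (4.21), and it had the lowest smooth muscle (5604) and the highest adipocyte (5042) marker sum of its group. WT library 21 was far below the other WT libraries for Col8a2 (0.438). The part of the marker levels in these values was not tested.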

How the results depend on the processing

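Beside leaving out libraries, 15 alternatives were run. Replicate numbers are not shared between groups, but the last 2 digits of the title codes occur in both ApoE KO groups for 8 pairs of libraries. Deviations from the group means correlated across genes at r of -0.54 to 0.62 within these pairs, over 0.1 in 2 of 8. Of these libraries, 2 of 8 Scl-Ab and 1 of 8 vehicle libraries correlated best with their own digits. These 8 correlations cannot show whether equal digits mark matched libraries, since the labels do not explain the code. For Scl-Ab against vehicle, these 16 libraries alone gave 180 called genes, and 7 with the digits as a replicate block, both added after the data had been seen. None of the 10 genes passed in either. In both, Col4a2 was at -0.0058, Col8a2 at 0.062, the Col4a3 to Col4a4 ratio at 0.023 and the Col4a1 to Col4a2 ratio at -0.13, which did not pass (exact permutation test, adjusted p = 0.126, and 0.127 with the block by exact sign changes). Against WT, the calls of Col4a3, Col4a6, Col8a1 and Col8a2 kept their direction and their side of the threshold under all that applied. The cause of the changes listed here was not tested.

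For Scl-Ab against vehicle, the main 1005 called genes became 447 without the filter, 369 with equal totals, 309 with these groups fitted alone, 1538 with the adipocyte, 2156 with the endothelium and 3 with the clock covariate. They became 348 with the title code as a term, 0 among codes 12 to 15 alone and 93 among codes 27 to 33 alone, and 547 to 1223 when 1 library was left out. The share of calls that were higher was 35.4%, against 45.5% with TMM and 65.0% with equal totals. For Scl-Ab against WT it was 39.4%, against 50.9% with GC and length trends removed. No scaling moved the median of all genes by over 0.1.

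None of the 10 genes passed between Scl-Ab and vehicle except Col4a1 with the endothelium covariate (1 gene, adjusted p = 0.0317, limma). Several log2 differences near 0 changed sign. They became -0.17, -0.045, -0.0082, -0.15, -0.039 and 0.22 for Col4a2, Col4a3, Col4a4, Col4a5, Col4a6 and Col8a2 with the endothelium covariate. With the clock covariate they became 0.028, -0.069, -0.066 and 0.20 for Col4a1, Col4a3, Col4a4 and Col8a2. With library weights they were -0.019, -0.0052 and 0.071 for Col4a2, Col4a5 and Col8a2. Codes 12 to 15 gave -0.043 for Col4a5 and 0.45 for Col8a2, and codes 27 to 33 gave -0.010 for Col4a2. Col4a2 was -0.094 with GC and length trends removed, and Col18a1 was 0.037 with the adipocyte covariate. Leaving out 1 library gave -0.075 to 0.11 for Col4a2, -0.063 to 0.13 for Col4a3, -0.026 to 0.13 for Col4a4, -0.043 to 0.12 for Col4a5, -0.19 to 0.12 for Col8a2 and -0.22 to 0.054 for Col18a1.

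Against WT, Col18a1 with vehicle became 0.025 with GC and length trends removed and 0.29 with the endothelium covariate, Col4a5 with vehicle became 0.021 with that covariate, and Col18a1 with Scl-Ab became 0.013 with the adipocyte covariate. With 1 added to both values, the Col4a3 to Col4a4 ratio in Scl-Ab against WT missed the threshold (log2 0.12, adjusted p = 0.0512). Leaving out 1 library gave it 0.12 to 0.18, and gave -0.044 to 0.017 for Scl-Ab against vehicle. The other log2 ranges were -0.013 to 0.045 for Col4a1 to Col4a2 in vehicle against WT, -0.16 to -0.071 for Col4a5 to Col4a6 in Scl-Ab against vehicle, and, for the collagen IV sum, -0.13 to 0.032 in Scl-Ab against vehicle and 0.062 to 0.22 in vehicle against WT. The share of Col4a1 plus Col4a2 in Scl-Ab against vehicle ran from -2.46 to -1.499 points and passed in 5 of 19 sets. In Scl-Ab against vehicle, codes 12 to 15 alone gave -0.091 for Col4a1 to Col4a2, and codes 27 to 33 alone gave -3.39 points for the share (adjusted p = 0.0216, exact permutation test). Depth limits the precision of Col8a2 in WT, where it averaged 1.07 ± 0.252 (SD, n = 10), close to the value of 1 used as the filter.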
